A study of Mus musculus with 13 samples.

Results

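Translation initiation factors are the proteins that bring the ribosome, the initiator tRNA and an mRNA together at a start codon. Their genes were examined in 2 libraries of mouse spermatogonia, which divide by mitosis before germ cells enter meiosis. The group was defined by gene symbol alone, as every symbol that begins with Eif and a digit, without the 4 Argonaute genes that carry older symbols of this form (Eif2c1 to Eif2c4). This gave 53 genes out of 20662 listed symbols. They were placed in 12 sets by complex or role, from eIF1 to eIF6.

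The series holds 13 samples of testicular germ cells from C57BL/6 mice aged 8 weeks: 2 of spermatogonia, 5 each of spermatocytes and spermatids, and 1 of sperm. The labels give no genotype or treatment. Only the spermatogonial samples, titled KIT_AGSC and THY1_AGSC, were analysed here. Each is 1 library of ribosome-depleted, strand-marked RNA from testis. KIT is the receptor of differentiating spermatogonia, and THY1 is a surface antigen used to enrich undifferentiated ones. The labels do not say how many animals were pooled or how the cells were sorted. Values are given as FPKM, fragments scaled to transcript length and library size, which allows levels of different genes to be set side by side. With 1 library per group there is no replicate, no p-value and no error, and a difference below is one between 2 libraries. In RNA from many cells, fewer cells of a type and less RNA per cell cannot be told apart.

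The titles and the contents of the libraries ran against each other. Under the title KIT, the deposited column bears the name Thy1, Kit was listed at 0 and Thy1 was at 78.8 FPKM. Under the title THY1, the column bears the name Kit, Kit was at 36.7 FPKM and Thy1 at 0.723 FPKM. Sample titles are followed throughout, so that KIT and THY1 below name the label of a library and not its content, and every direction below would turn if the titles were exchanged. Depth also differed. The worth of 1 fragment, read from the low end of FPKM multiplied by transcript length, was 6.41 times larger in the KIT-labelled library, so low values there rest on few fragments. Rpph1, a noncoding RNA, took up 71.8% of the summed FPKM in the KIT-labelled library and 37.9% in the other. Of 14 spermatogonial marker genes, Zbtb16, Etv5, Lin28a, Kit and Sohlh2 were listed at 0 in the KIT-labelled library, and Zbtb16 and Lin28a in the THY1-labelled library. By 2-fold or more, 4 of the 14 lay toward the KIT-labelled library and 5 toward the other. The 14 summed to 225 and 158 FPKM in that order. The 4 were Nanos3 (118 against 2.74 FPKM), Nanos2 (54.1 against 1.49), Gfra1 (3.91 against 0.102) and Id4 (3.75 against 0.936). The 5 were Kit, Sohlh2, Etv5, Stra8 (0.743 against 34.1 FPKM) and Uchl1 (3.26 against 49.5), with the KIT-labelled value first throughout.

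Markers of other testis cells were read in both libraries, at unequal levels. Every one of 9 meiotic markers was higher by 2-fold or more in the THY1-labelled library, where they summed to 3529 FPKM against 149.9, and Dmc1 and Hormad1 were listed at 0 in the KIT-labelled library. Of 7 Leydig cell markers 6 were higher in the THY1-labelled library, with sums of 6469 and 165 FPKM, and Hsd3b6 and Hsd17b3 were listed at 0 in the KIT-labelled library. Of 7 macrophage markers 3 were higher in the THY1-labelled library and 2 in the KIT-labelled library, with sums of 964 and 207 FPKM. The 6 Sertoli markers summed to 869 and 18.7 FPKM in that order, although 2 were higher in the first and 3 in the second, where Fshr was listed at 0. Of 8 spermatid markers 5 were higher in the KIT-labelled library and 3 in the other, with sums of 4883 and 980 FPKM, and Spaca1 and Crem were listed at 0 in the former. Peritubular markers were higher in the KIT-labelled library for 4 of 5 genes (217 against 55.4 FPKM in sum) and T lymphocyte markers for 3 of 5 (49.0 against 14.2 FPKM), with Cd3e listed at 0 in the THY1-labelled library. The part of these cells in the differences below was not tested.

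Initiation runs in steps. eIF1 and eIF1A open the small ribosomal subunit for scanning, eIF2 carries the initiator tRNA as a complex with GTP, eIF2B reloads eIF2 with GTP, and eIF3 is the large scaffold on the small subunit. eIF4E binds the mRNA cap, eIF4A unwinds the leader and eIF4G bridges both to eIF3, while eIF5 and eIF5B end the search by triggering GTP hydrolysis and joining the large subunit. Phosphorylation of eIF2 by dedicated kinases and sequestration of eIF4E by binding proteins are the main brakes. Germ cells are known for storing mRNA and for using testis-enriched variants of several of these factors.

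Most initiation factor genes were higher in the THY1-labelled library. Of the 53, 36 were at least 2-fold higher there on the log2(FPKM + 1) scale, 8 were at least 2-fold higher in the KIT-labelled library and 9 lay within 2-fold, Eif4ebp1 among them because it is listed at 0 in both. A gene is called higher below only where it passed 2-fold on this scale. The share of all 20662 listed genes past 2-fold was 31.0% toward the THY1-labelled library and 29.8% toward the KIT-labelled library, against 67.9% and 15.1% of the initiation factor genes. The median initiation factor gene stood at 4.23 FPKM in the KIT-labelled library and at 38.1 FPKM in the THY1-labelled library, whereas the median listed gene stood at 2.50 and 3.13 FPKM. The median difference, labelled KIT minus labelled THY1 as everywhere below, was -2.51 over the 53 genes and 0 over all listed genes. The former is the value of Eif2s3x, which was listed at 0 in the KIT-labelled library. Over genes above 0 in both libraries and of at least 1 FPKM in either, the medians were -1.94 and 0.42. Summed over the 53, the level was 833 FPKM in the KIT-labelled library and 3716 FPKM in the THY1-labelled library, or 0.195% and 0.744% of each library's sum without Rpph1.

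A minimum of 1 FPKM in the library with the larger value was passed by 51 of the 53, and Eif1 and Eif4ebp1 failed it. Among all 15573 genes that passed it, 41.1% were at least 2-fold higher in the THY1-labelled library and 39.5% in the KIT-labelled library. In the KIT-labelled library 12 of the 53 (22.6%) were listed at 0, and in the THY1-labelled library 2 of 53 (3.77%). For all genes these shares were 33.2% and 24.2%. A listed 0 can be a failed estimate, so no ratio is given against it. Among the 40 genes above 0 in both libraries and past that minimum, 26 were higher in the THY1-labelled library and 7 in the KIT-labelled library, where the shares of all such genes were 33.9% and 41.5%.

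**Figure D1:**
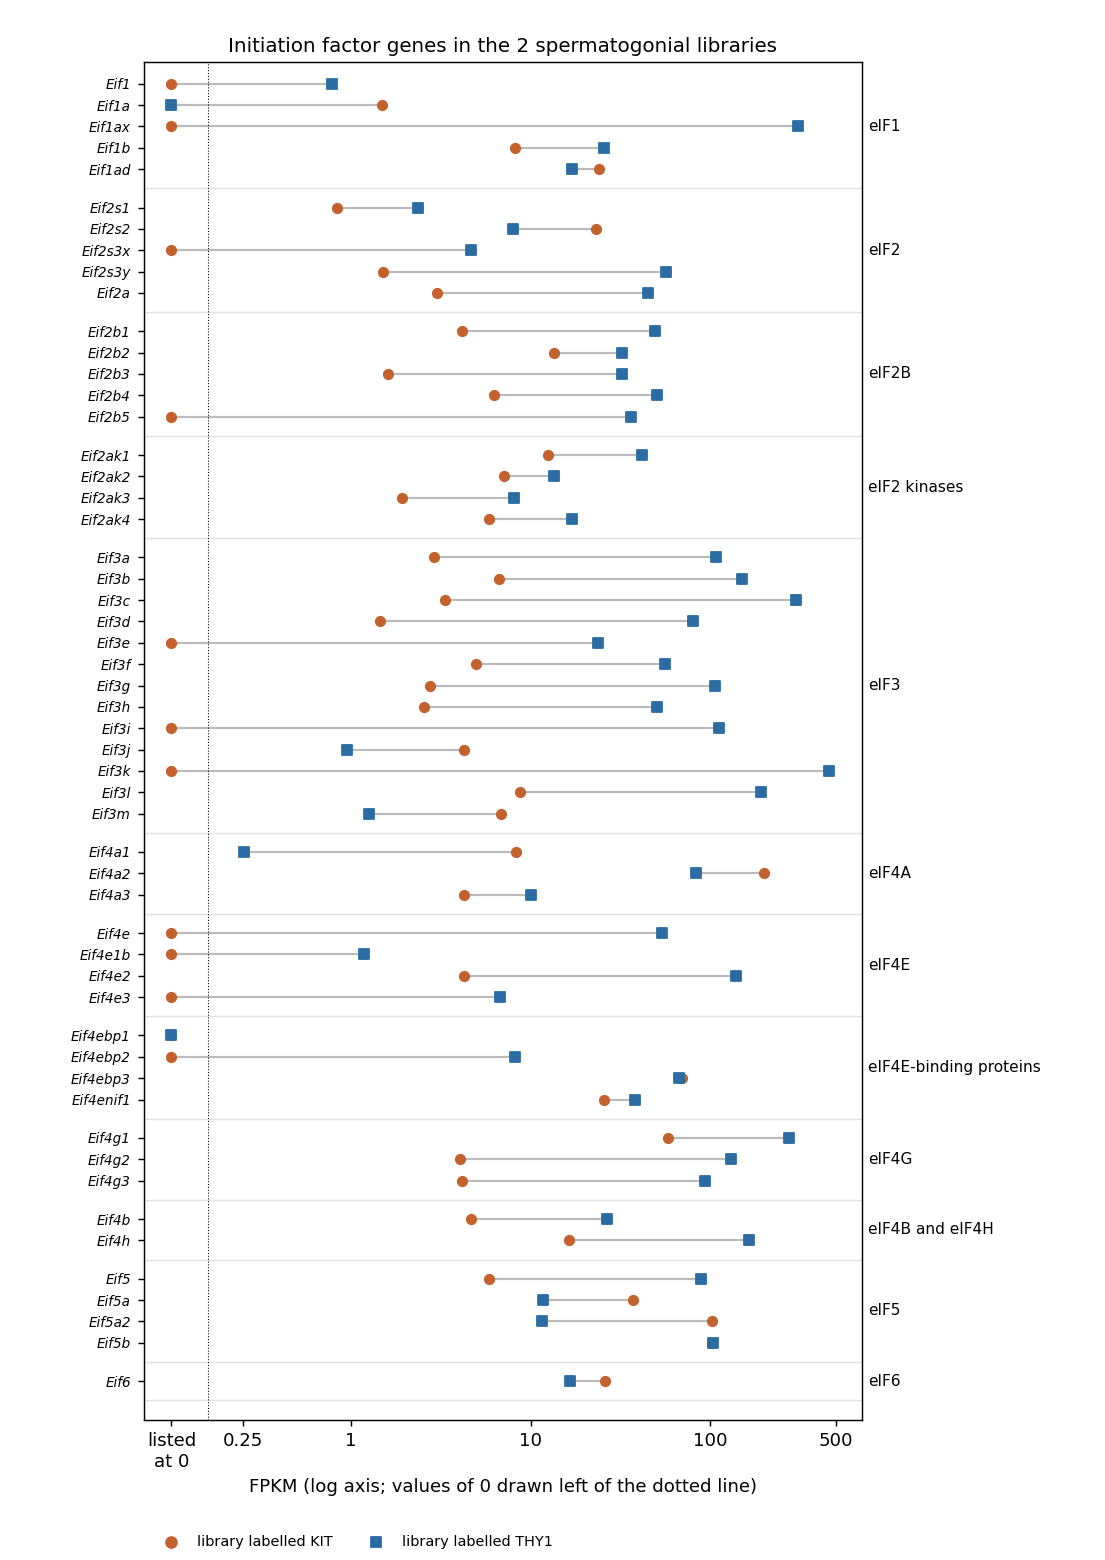
FPKM of each of the 53 initiation factor genes (log axis) in the KIT-labelled library (circles) and the THY1-labelled library (squares), joined by a line and grouped by complex. The squares lie to the right for 11 of 13 eIF3 genes and all 5 eIF2B genes, the circles lie to the right for Eif5a, Eif5a2, Eif4a1 and Eif4a2, and both symbols coincide for Eif5b and Eif4ebp1.

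eIF3, the scaffold of the small subunit, had a median difference of -4.62. Of its 13 subunit genes, 11 were higher by 2-fold or more in the THY1-labelled library and 2 were higher in the KIT-labelled library. The 11 ranged from 23.7 to 456 FPKM in the THY1-labelled library and from a listed 0 to 8.68 FPKM in the KIT-labelled library. Over all 13 the ranges were 0.948 to 456 FPKM and a listed 0 to 8.68 FPKM, which overlap. The 8 of them above 0 in both libraries were 11.3 to 89.5 times higher in the THY1-labelled library.

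By role, the subunits of the conserved core came first. Eif3a, the largest subunit and the organiser of the complex, was at 2.91 FPKM in the KIT-labelled library and at 108 FPKM in the THY1-labelled library. Eif3b, which holds the smaller core subunits, was at 6.70 and 149.8 FPKM. Eif3c, the partner of Eif3a, was at 3.34 and 299 FPKM, the ratio of 89.5. These 3 genes encode the core around which the others assemble, and none of them was above 10 FPKM in the KIT-labelled library. Eif3g, an RNA-binding subunit, was at 2.76 and 107 FPKM. Eif3i, a propeller-shaped subunit, was at a listed 0 and 111 FPKM.

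The subunits outside that core lay the same way with the exception of Eif3m and Eif3j. Eif3d, a subunit with cap-binding activity of its own, was at 1.46 FPKM in the KIT-labelled library and 80.7 FPKM in the THY1-labelled library. Eif3e was at a listed 0 and 23.7 FPKM. Eif3f was at 4.97 and 56.2 FPKM. All of these were above 20 FPKM in the THY1-labelled library and below 5 FPKM in the other. Eif3h was at 2.55 and 50.3 FPKM, and Eif3l at 8.68 and 192 FPKM. Eif3k, which pairs with Eif3l at the edge of the complex, was at a listed 0 and at 456 FPKM, the highest value of the 53 genes in the THY1-labelled library. Eif3m, a subunit of the outer ring, was at 6.88 FPKM in the KIT-labelled library and 1.25 FPKM in the THY1-labelled library. Eif3j, a loosely bound accessory subunit, also ran that way, at 4.23 and 0.948 FPKM.

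Ranked within each library, which no scaling alters, the 8 of the 11 genes that were above 0 in both spanned percentiles 42.8 (Eif3d) to 69.7 (Eif3l) of all listed genes in the KIT-labelled library. The 11 spanned percentiles 78.4 (Eif3e) to 99.5 (Eif3k) in the THY1-labelled library. Eif3m sat at percentile 66.1 in the KIT-labelled library and 40.3 in the other, and Eif3j at 58.2 and 37.7. Several of the low values are thin. Eif3d, Eif3g and Eif3h came to 1.01, 1.11 and 1.21 times the worth of 1 fragment in the KIT-labelled library. Eif3a, Eif3b, Eif3c, Eif3f and Eif3l came to 5.44, 7.21, 4.13, 4.57 and 6.17 times there. Eif3m came to 3.23 times the worth of 1 fragment in the KIT-labelled library and 3.77 times in the THY1-labelled library, so its direction rests on few fragments in both.

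The promoters of eIF3 genes are shown because subunits of both directions carry the same motif. In the KIT direction only Eif3m does, and its direction rests on few fragments in both libraries. Eif3j, the other subunit higher in the KIT-labelled library, has a window without the motif. In the RefSeq promoter table (GRCm38.p6), 42 of the 53 genes had an entry. The core of the binding motif of ETS factors, CCGGAAG on either strand, was found in 34.5% of their 55 windows of 300 bases, against 8.86% of all 32851 windows and 13.9% of the 13556 windows of genes past 1 FPKM. The motif was chosen after the promoters had been read. Of its 22 matches in these windows, 0 overlap another motif searched. Of 10 eIF3 genes with a window, 5 held it, and the 120 bases before the start of each follow, 5′ to 3′ on the gene's strand, with the motif in capitals. Eif3c (chr7:126566367-126566486, minus strand), Eif3d (chr15:77970825-77970944, minus), Eif3g (chr9:20898591-20898710, minus) and Eif3l (chr15:79075103-79075222, plus) were higher in the THY1-labelled library, and Eif3m (chr2:105017028-105017147, minus) in the KIT-labelled library.
Eif3c: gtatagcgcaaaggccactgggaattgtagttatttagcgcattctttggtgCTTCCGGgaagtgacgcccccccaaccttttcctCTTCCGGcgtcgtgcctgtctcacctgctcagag
Eif3d: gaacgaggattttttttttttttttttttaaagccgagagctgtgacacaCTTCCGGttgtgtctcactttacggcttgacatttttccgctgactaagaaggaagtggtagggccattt
Eif3g: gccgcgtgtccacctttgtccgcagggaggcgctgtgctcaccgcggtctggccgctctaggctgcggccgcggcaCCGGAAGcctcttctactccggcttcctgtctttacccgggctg
Eif3l: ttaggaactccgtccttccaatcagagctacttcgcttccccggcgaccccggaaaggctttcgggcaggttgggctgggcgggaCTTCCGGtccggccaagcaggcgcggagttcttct
Eif3m: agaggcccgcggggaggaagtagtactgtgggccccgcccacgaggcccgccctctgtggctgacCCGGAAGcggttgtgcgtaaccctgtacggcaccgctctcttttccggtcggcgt

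Eif3c holds the motif at 2 places and the other 4 genes hold it once in these stretches. Over all initiation factor genes with a window, the 16 with the motif had a median difference of -2.24, with 11 higher in the THY1-labelled library and 3 in the KIT-labelled library. The 26 without it had a median of -2.40, with 18 and 4. A match describes the sequence only. The GC box GGGCGG was in 70.9% of the windows, against 55.7% of windows of genes past 1 FPKM. The TATA box TATAAA was in 7.27%, against 8.87%. The other motifs searched were the CCAAT box (27.3% against 37.3%) and the motifs of the factors YY1, AAGATGGC (9.09% against 3.67%), and NRF1, GCGCATGC (5.45% against 4.42%).

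eIF2B, the exchange factor that reloads eIF2 with GTP and is blocked by phosphorylated eIF2, was higher in the THY1-labelled library for all 5 subunits. Its values there lay close together, from 32.3 to 50.6 FPKM, a span of 1.56 times, while in the KIT-labelled library they ran from a listed 0 to 13.5 FPKM. Eif2b1 (alpha) was at 4.14 FPKM in the KIT-labelled library and 49.3 FPKM in the THY1-labelled library. Eif2b2 (beta) was at 13.5 and 32.4 FPKM, the smallest ratio at 2.40, which fell under 2-fold when libraries were scaled to the summed FPKM without Rpph1 or to the upper quartile. Eif2b3 (gamma) was at 1.60 and 32.3 FPKM. The 3 regulatory subunits alpha, beta and delta had the larger values of the KIT-labelled library, but these values rest on few fragments. Eif2b1, Eif2b2, Eif2b3 and Eif2b4 came to 3.05, 7.94, 2.19 and 4.63 times the worth of 1 fragment there, so their order is uncertain. Eif2b4 (delta) was at 6.26 and 50.6 FPKM. Eif2b5 (epsilon), which carries the catalytic activity, was at a listed 0 and 36.0 FPKM. No other complex with 4 or more genes was as even in the THY1-labelled library, where the highest and lowest values above 0 differed by 5.14 times among the eIF2 kinases, 24.1 times in eIF2 and 481 times in eIF3.

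eIF2 itself was uneven. Eif2s1, the alpha subunit that the kinases phosphorylate, was at 0.839 FPKM in the KIT-labelled library and 2.36 FPKM in the THY1-labelled library, within 2-fold on the log2(FPKM + 1) scale and at 1.04 times the worth of 1 fragment in the former. It passed 2-fold with a pseudocount of 0.1 or after scaling to a median ratio of 1. Eif2s2, the beta subunit, was higher in the KIT-labelled library, at 23.2 FPKM against 7.94, but under 2-fold after scaling to a median ratio of 1. The gamma subunit has one gene on the X and one on the Y chromosome in the mouse, and the Y copy, Eif2s3y, is known as a gene that spermatogonial proliferation needs. Eif2s3y was at 1.50 FPKM in the KIT-labelled library, 1.01 times the worth of 1 fragment, and at 56.7 FPKM in the THY1-labelled library. Eif2s3x was at a listed 0 and at 4.68 FPKM. The Y copy thus made up 92.4% of the summed gamma level in the THY1-labelled library. Of the 30-base words in the transcripts of Eif2s3x, 35.7% also occur at another locus, against 0.543% for Eif2s3y, so the values of the X copy are uncertain. Eif2a, a separate protein that can also deliver initiator tRNA, was at 3.03 and 44.8 FPKM.

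All 4 eIF2 kinase genes had larger values in the THY1-labelled library, 3 of them by at least 2-fold. Eif2ak1 (HRI, activated by haem deficiency) was at 12.5 FPKM in the KIT-labelled library and 41.6 FPKM in the THY1-labelled library. Eif2ak3 (PERK, of the endoplasmic reticulum) was at 1.92 and 8.10 FPKM. Eif2ak4 (GCN2, activated by amino acid shortage) was at 5.87 and 16.9 FPKM. Eif2ak2 (PKR, activated by double-stranded RNA) was at 7.15 and 13.4 FPKM, under 2-fold except after scaling to a median ratio of 1. Eif2ak1 made up 45.6% of the summed kinase level in the KIT-labelled library and 52.0% in the other, Eif2ak4 21.4% and 21.1%, and Eif2ak2 26.1% and 16.8%.

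**Figure D2:**
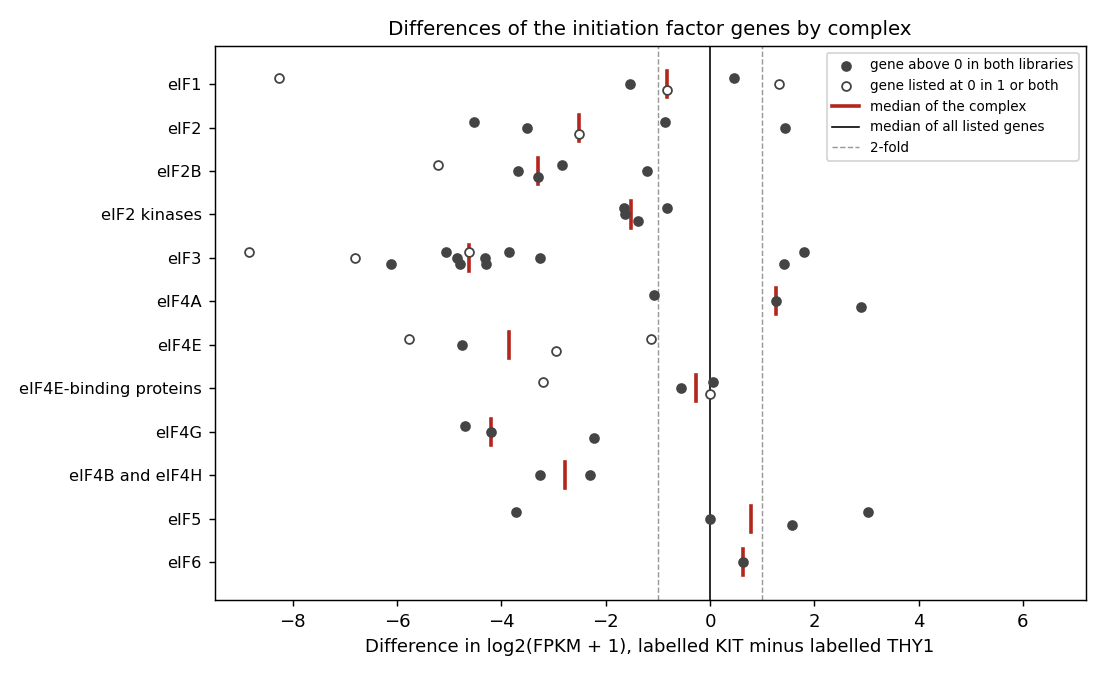
Difference in log2(FPKM + 1), labelled KIT minus labelled THY1, of each initiation factor gene by complex, with red bars at the medians and open circles for genes listed at 0 in at least 1 library. The medians of eIF3 (-4.62), eIF4G (-4.20), eIF4E (-3.85) and eIF2B (-3.29) lie left of the 2-fold line, and that of eIF4A (1.26) lies right of it.

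The cap-binding complex divided by component. Its scaffold genes and Eif4e were higher in the THY1-labelled library, and the helicase genes Eif4a1 and Eif4a2 were higher in the KIT-labelled library. All 3 eIF4G genes were higher in the THY1-labelled library. Eif4g1, the main scaffold, was at 58.4 FPKM in the KIT-labelled library and 276 FPKM in the THY1-labelled library. Eif4g2, which lacks the cap-binding part and serves cap-independent initiation, was at 4.06 and 130 FPKM. Eif4g3, whose loss is known to arrest male meiosis, was at 4.16 and 93.8 FPKM. The make-up therefore differed: Eif4g1 held 87.7% of the summed eIF4G level in the KIT-labelled library and 55.2% in the other, while Eif4g3 held 6.25% and 18.8%.

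The 4 eIF4E genes had larger values in the THY1-labelled library, and 3 of them were listed at 0 in the other. The cap-binding protein Eif4e was at a listed 0 in the KIT-labelled library and at 53.9 FPKM in the THY1-labelled library. Eif4e2, a homologue that represses translation, was at 4.23 and 140 FPKM and was the only family member above 0 in the KIT-labelled library, with 69.4% of its sum in the THY1-labelled library. The family summed to 4.23 FPKM in the KIT-labelled library and to 202 FPKM in the other. Eif4e3 was at a listed 0 and 6.73 FPKM. Eif4e1b, a form known from oocytes, was at a listed 0 and 1.18 FPKM, less than the 1.28 FPKM that 1 fragment would have been worth in the KIT-labelled library, so its difference cannot be read. For Eif4e and Eif4e3, 1 fragment would have been worth 0.548 and 1.09 FPKM there.

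The eIF4A helicases ran the other way except for Eif4a3. Eif4a2 was at 200.2 FPKM in the KIT-labelled library, the highest value of the 53 genes there, and at 83.1 FPKM in the THY1-labelled library, a difference that fell under 2-fold when libraries were scaled to a median ratio of 1. It made up 94.1% of the summed eIF4A level in the former and 88.9% in the latter. Eif4a1, the form that usually dominates in dividing cells, was at 8.32 and 0.254 FPKM. Its value in the THY1-labelled library came to 1.05 times the worth of 1 fragment. Eif4a3, which belongs to the exon junction complex and not to the cap-binding complex, was at 4.25 and 10.1 FPKM. Eif4b and Eif4h, the cofactors of eIF4A, were higher in the THY1-labelled library, at 4.66 against 26.7 FPKM and 16.3 against 164 FPKM.

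Of the 4 genes of proteins that bind eIF4E and hold it back, Eif4ebp3 and Eif4enif1 lay within 2-fold. Eif4ebp3 was at 69.3 FPKM in the KIT-labelled library and 66.8 FPKM in the THY1-labelled library, a ratio of 1.04. Eif4enif1, which carries eIF4E into the nucleus and to RNA granules, was at 25.6 and 38.1 FPKM, but passed 2-fold after scaling to a median ratio of 1. Eif4ebp2 was at a listed 0 and 8.21 FPKM, and Eif4ebp1 was listed at 0 in both. In the KIT-labelled library the value of Eif4ebp3 was above the summed eIF4E family (69.3 against 4.23 FPKM), and in the THY1-labelled library below it (66.8 against 202 FPKM). The sum of 4.23 FPKM is Eif4e2 alone, at 5.37 times the worth of 1 fragment, since the other 3 eIF4E genes were listed at 0. A listed 0 can be a failed estimate, so the comparison in the KIT-labelled library is uncertain. Eif4ebp3 overlaps another annotated coding gene on its own strand (AC115631.1), so its value is uncertain.

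**Figure D3:**
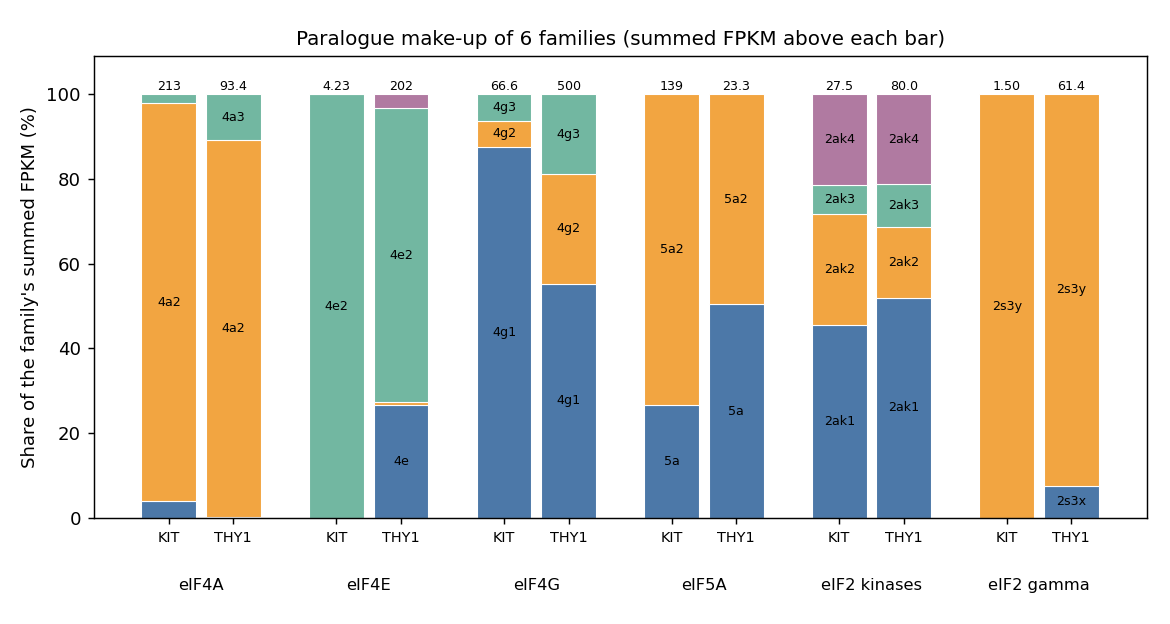
Share of each family's summed FPKM taken by its paralogues in the KIT-labelled library and the THY1-labelled library, with the sum above each bar and names shown for shares of 6% or more. Eif4a2 holds 94.1% and 88.9% of eIF4A, Eif5a2 holds 73.4% and 49.5% of eIF5A, and Eif4g1 holds 87.7% and 55.2% of eIF4G. In eIF4A the unnamed blue piece is Eif4a1 and the unnamed green piece Eif4a3, and in eIF4E the unnamed violet piece is Eif4e3.

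Among the factors of start site choice, the eIF1A genes ran in opposite directions, although Eif1a rests on few fragments. Eif1 and Eif1b both had their larger value in the THY1-labelled library. Eif1ax, the X-linked gene of eIF1A, was at a listed 0 in the KIT-labelled library and at 308 FPKM in the THY1-labelled library, the second highest value of the 53 genes there. Eif1a, the other eIF1A gene, was at 1.49 FPKM in the KIT-labelled library, or 1.57 times the worth of 1 fragment, and at a listed 0 in the other. Eif1b was at 8.20 and 25.7 FPKM. Eif1, its close homologue, was at a listed 0 and 0.784 FPKM, the latter 2.43 times the worth of 1 fragment. Eif1ad, named for its resemblance to eIF1A, was at 23.9 and 17.1 FPKM.

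Of the 4 eIF5 genes and Eif6, which act at the end of initiation or beyond it, only Eif5 was higher in the THY1-labelled library. Eif5a2 was at 102 FPKM in the KIT-labelled library and 11.6 FPKM in the THY1-labelled library, a ratio of 8.83. Eif5a was at 37.0 and 11.8 FPKM. Both encode eIF5A, the hypusine-bearing factor that helps the ribosome through difficult peptide bonds, and Eif5a2 is the form of restricted expression. Eif5a2 was at 188 times the worth of 1 fragment in the KIT-labelled library and 136 times in the other, so this difference does not rest on few fragments. Eif5b, the factor of subunit joining, was at 103 FPKM in both. Eif6, which keeps the large subunit apart until it is mature, was at 26.0 and 16.5 FPKM. Eif5, the GTPase-activating protein of eIF2, was at 5.84 FPKM in the KIT-labelled library and 89.1 FPKM in the THY1-labelled library.

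The 8 genes that were higher in the KIT-labelled library were thus Eif5a2, Eif5a, Eif4a2, Eif4a1, Eif2s2, Eif3m, Eif3j and Eif1a. Of these, Eif5a2, Eif4a2, Eif5a and Eif2s2 were above 20 FPKM in the KIT-labelled library, and the other 4 were below 10 FPKM in both libraries.

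Initiation factor genes have many processed copies in the genome, and reads that match several places can be lost or split. For each gene, the share of its 30-base transcript words that also occur in annotated transcripts of another locus (GENCODE M21) was therefore counted. Of the 53 genes 7 shared at least 20% of their words (13.2%, against 9.06% of 20301 genes): Eif1, Eif2s3x, Eif3h, Eif3j, Eif3m, Eif4a1 and Eif4a3. Their median level was 1.25 FPKM in the THY1-labelled library, against 47.0 FPKM for the other 46. In the KIT-labelled library the medians were 4.23 and 4.20 FPKM. Of the 7, 3 were higher in each direction, and of the 46, 33 were higher in the THY1-labelled library and 5 in the KIT-labelled library. Both eIF3 genes that went against their complex, Eif3j with 48.1% and Eif3m with 27.4%, were among the 7, beside Eif3h with 29.9%. The part of shared sequence in these values was not tested. Over all genes, those with such copies were listed at 0 more often, in 65.1% of cases against 29.9% in the KIT-labelled library and 61.4% against 20.4% in the THY1-labelled library.

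**Figure D4:**
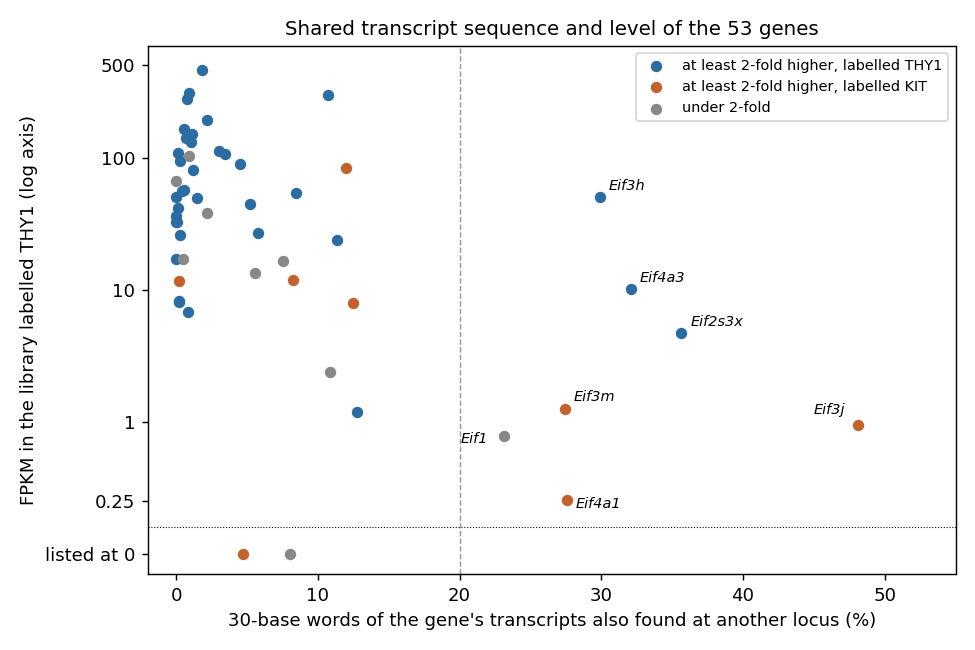
FPKM in the THY1-labelled library (log axis) of the 53 initiation factor genes against the percentage of their 30-base transcript words that also occur at another annotated locus, coloured by direction. The 7 named genes right of the dashed line at 20% lie at or below 50.3 FPKM, and 3 of the 8 genes higher in the KIT-labelled library are among them.

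The counts were also taken with a limit on depth. In the KIT-labelled library 21 of the 53 were under 3 times the worth of 1 fragment, and in the THY1-labelled library 4 were. Among the 31 genes at or above 3 times that worth in both libraries, 19 were at least 2-fold higher in the THY1-labelled library and 6 in the KIT-labelled library. The shares of all genes past the same limit were 27.8% and 47.1%. The median difference of the 31 was -1.64, and that of all such genes was 0.81.

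Genes that work beside the initiation factors were compared by lists. Of 24 initiation partners, 15 were higher in the THY1-labelled library and 4 in the KIT-labelled library, with a median difference of -1.31. The shares of all 20662 listed genes were 31.0% and 29.8% in that order. Among all genes of at least 1 FPKM in either library, as every gene of this list was, they were 41.1% and 39.5%. Ddx3x and Ddx3y, the X- and Y-linked copies of a helicase that helps scanning, were at 4.20 and 0.406 FPKM in the KIT-labelled library and at 118 and 97.6 FPKM in the THY1-labelled library, the same direction as the X and Y copies of eIF2 gamma. Their testis-specific retrogene D1Pas1 was the reverse, at 5.51 against 0.743 FPKM. In the KIT-labelled library Ddx3y came to 0.683 times the worth of 1 fragment and Ddx3x to 7.21 times. Paip2, which binds poly(A)-binding protein and represses translation, was at 40.7 and 423 FPKM, and Pdcd4, an inhibitor of eIF4A, at 84.4 and 200 FPKM. The testis poly(A)-binding gene Pabpc2 was higher in the KIT-labelled library at 18.9 against 2.51 FPKM, as was Mcts2 at 12.5 against 2.73 FPKM.

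Genes that control eIF2 and mTOR included 8 of 19 higher in the THY1-labelled library and 5 in the KIT-labelled library (median -0.59). For all listed genes these shares were 31.0% and 29.8%. Among all genes of at least 1 FPKM in either library, as every gene of this list was, they were 41.1% and 39.5%. Atf5 was at 89.0 FPKM in the KIT-labelled library against 11.1 in the THY1-labelled library. Ppp1r15a, which directs the dephosphorylation of eIF2, was at 16.6 against 1.35 FPKM. Trib3, an inhibitor in the stress response downstream of eIF2, was at 8.03 against 0.902 FPKM. Atf4, the central factor of that response, was the reverse at 38.6 FPKM in the KIT-labelled library and 107 FPKM in the THY1-labelled library. Ddit3, another factor of it, chosen here after its values were seen, was at 20.6 and 47.7 FPKM. The kinase Mtor was at 2.41 and 58.5 FPKM, and Gcn1l1, the partner of GCN2, at 1.99 and 42.8 FPKM. Nck1, an adaptor, was at a listed 0 and 10.2 FPKM, and Tsc2, which restrains mTOR, at 66.7 and 39.1 FPKM, within 2-fold.

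Of the elongation and termination genes, 4 of 14 were higher in the THY1-labelled library and 5 in the KIT-labelled library (median -0.54). For all listed genes these shares were 31.0% and 29.8%. Among all genes of at least 1 FPKM in either library, as every gene of this list was, they were 41.1% and 39.5%. The termination factor Etf1 was at 1.29 FPKM in the KIT-labelled library and 213 FPKM in the THY1-labelled library. The elongation factor Eef1a1 was at 3.27 and 67.7 FPKM, with 51.4% of its words shared with other loci. Eef1e1, an elongation factor by symbol only, was at a listed 0 and 56.9 FPKM. Etf1 and Eef1a1 came to 1.75 and 2.14 times the worth of 1 fragment in the KIT-labelled library. In the other direction, the ribosome rescue factor Pelo was at 13.3 against 0.403 FPKM, Eef1g, with 47.8% of its words shared, at 29.3 against 4.00 FPKM and Eef1a2 at 5.28 FPKM against a listed 0. Hbs1l, the partner of Pelo, was at 94.0 and 125 FPKM, within 2-fold. The mitochondrial initiation factors were at 7.10 and 17.8 FPKM (Mtif2) and 36.9 and 21.1 FPKM (Mtif3).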

How the data were processed

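RNA of 2 spermatogonial samples was analysed, while 11 samples of later germ cells were not used here. The deposited tables give 1 value per gene symbol, without a unit in the header. They were taken as FPKM as the authors deposited them, since they are not whole numbers and the submitters' processing notes name Cufflinks 2.1.1, beside TopHat 1.4.1, CASAVA and the build mm9, without roles. For the annotation and for reads with several matches, the method is not given in the sources used here. Groups follow the sample titles.

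Differences were taken on log2(FPKM + 1), and a gene counted as higher from 2-fold. No test is possible with 1 library per group. The number of reads is unknown, so depth was judged only by the worth of 1 fragment. The worth of 1 fragment is percentile 5 of FPKM times transcript length for values above 0, over 2307 genes with a single GENCODE M21 transcript longer than 1000 bases (2735 in the KIT-labelled library, 427 in the THY1-labelled library). Lengths are those of the longest coding transcript. Coordinates are those of the promoter table only. The initiation factors, lists and motifs were chosen with earlier results of these data known. Every initiation factor with a value of at least 1 FPKM in either library is named. From each list come at most 3 genes per direction, those furthest apart between libraries and at 5 FPKM or more in either, and the 2 of highest mean. One gene that this rule names is not reported here. The counting was checked on simulated data. Python 3.11.15, numpy 2.4.6, pandas 2.3.3 and matplotlib 3.10.9 were used.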

Additional observations from a re-analysis of the deposited data

How the results depend on the processing

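No paired analysis was possible because each group has 1 library. The median difference over the initiation factor genes stayed below 0 under each of 10 alternatives. It was -2.83 over the 51 genes past 1 FPKM, -3.47 with a pseudocount of 0.1, -2.51 with no filter, -3.23 with a minimum of 5 FPKM, -2.95 with a minimum of 5 times the worth of 1 fragment, -1.94 over genes above 0 in both libraries and -3.20 without genes that have near-identical copies. It was -3.20 after scaling to a median ratio of 1, -2.58 after scaling to the upper quartile and -2.62 after scaling to the sum without Rpph1. These scalings put the median of all genes at -0.56, 0.26 and 0.22, from -0.0026, and relative to it the initiation factors lay at -2.64, -2.84 and -2.84. With both values at least 3 times the worth of 1 fragment, an alternative chosen after seeing the data, the median was -1.64, 19 genes were higher in the THY1-labelled library instead of 36, and eIF2 turned to 1.44 on the 1 gene left, Eif2s2. Without near-identical copies 5 genes were higher in the KIT-labelled library instead of 8. Eif4a2 and Eif2s2 fell under 2-fold after scaling to a median ratio of 1, and Eif2b2 and Eif4a3 under both other scalings. Eif4enif1, Eif2s1 and Eif2ak2 passed 2-fold after scaling to a median ratio of 1, and Eif2s1 also with a pseudocount of 0.1. The median of eIF4E lay further from 0 than that of eIF3 under 4 alternatives. It was -5.55 against -5.17 with a pseudocount of 0.1 and -4.75 against -4.71 at 5 FPKM. Above 0 in both libraries it was -4.75 against -4.31. With both values at least 3 times the worth of 1 fragment it was -4.75 against -4.29. Under each of these last alternatives, above 0 in both and 3 times the worth, eIF4E was left with 1 gene, Eif4e2. No gene past 2-fold changed direction under any alternative run, but none could have. Filters leave the values as they are, a pseudocount keeps the sign, and the scalings shifted differences by less than the 2-fold limit.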

Other observations

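Within the bounds of 13 of the initiation factor genes, GENCODE M21 places genes of small RNAs. Eif4a2, the member with the highest value in the KIT-labelled library, holds 6, among them Snord2 and Snora81. Eif4a1 and Eif3a hold 3 each, and the other 10 hold 1 each. How reads of such RNAs were counted is not given in the sources used here, and their part in the values was not tested. A coding gene overlaps 12 of the initiation factor genes, on the same strand for Eif4ebp3 and Eif4e3 and on the opposite strand for the other 10, among them Eif3j and Eif3m.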
